A study of Mus musculus with 21 samples.

Results

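The 9 genes described here encode sensors of double-stranded RNA and other nucleic acids and their closest partners: Ifih1, Ddx58, Dhx58, Mavs, Tlr3, Eif2ak2, Adar, Zbp1 and Mb21d1. They were chosen by name, and all 9 were found among the 24495 gene rows of the count tables. Mouse male germ cells were sorted by Oct4-GFP, a reporter of the germ cell factor Oct4, from testes of offspring of Tex15 heterozygote matings on a mixed strain background. The 7 groups were Tex15 heterozygous (HT) and Tex15 knockout (KO) cells of embryonic day 16.5 (E16.5), HT and KO cells of embryonic day 18.5 (E18.5), and wild-type (WT), HT and KO cells after birth (D2.5 in the sample titles, day 2 in the design text). Each group held 3 libraries, which the series describes as biological triplicates. The control at E16.5 and E18.5 was the heterozygote, which carries 1 intact Tex15 allele.

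Cells detect viral RNA, and RNA from their own repeated elements, with proteins that bind double-stranded RNA. The helicases RIG-I (Ddx58) and MDA5 (Ifih1) signal through the mitochondrial protein MAVS to switch on interferon genes, Toll-like receptor 3 (Tlr3) senses double-stranded RNA in endosomes, and PKR (Eif2ak2) halts translation. Many of these genes are themselves induced by interferon, and germ cells of the fetal testis are of interest because retrotransposons are silenced in them.

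The interferon-stimulated response element is the promoter motif through which interferon induces many of these genes. Its core, GAAANNGAAA, was searched on both strands of RefSeq promoters (GRCm38.p6, 250 bases before to 50 after the start). RefSeq promoters were matched for 7 of the 9 genes (9 promoters). The core lay in 3 of the 9 promoters, each of another gene, against 3.443% of 32851 promoters of the same length. The windows of these 3 genes are shown because the element is the textbook link between interferon and sensor genes. They are printed along the strand of the gene, with the match in capitals.
Ifih1, chr2:62646206-62646235, minus strand: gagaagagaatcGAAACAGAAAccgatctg
Ddx58, chr4:40239804-40239833, minus strand: cctgaggcagTTTCGATTTCctatggccag
Eif2ak2, chr17:78882535-78882564, minus strand: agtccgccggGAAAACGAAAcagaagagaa
In Ddx58 the match is on the opposite strand. The matches lie after the start, at bases 33 to 42 in Ifih1, 3 to 12 in Ddx58 and 19 to 28 in Eif2ak2. A match describes the letters of the window and does not show that a factor binds there.

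Levels are given as CPM, the count of a gene scaled to the total gene count of its library. Gene totals were 6063632 to 11884109 counts per library and were lowest at D2.5, and 3 counts correspond to 0.224 to 0.556 CPM. Tex15 was at 2.90 to 23.6 CPM in KO libraries and at 741 to 4341 CPM in the others. Summed germ cell markers were at 3303 to 8235 CPM in every library. E16.5 HT replicate 1 had the highest Ddx58 and the lowest Tlr3 of the 21 libraries. The E16.5 fold changes of Ddx58, Dhx58, Tlr3 and Mb21d1 in KO against HT are given with and without it. So are the HT changes from E16.5 to E18.5 that passed. The ages were collected separately, so age and collection cannot be told apart. In sorted bulk samples, fewer cells of a type and less RNA per cell cannot be told apart either.

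No sensor gene passed the test between KO and HT cells at any age. Of the 8 genes tested, edgeR called 0 in each of the 3 comparisons, and DESeq2 and limma-voom called 0 as well. At an unadjusted p under 0.05 edgeR had 0, 1 and 2 of them. The share of all genes called in these comparisons was 0.00618%, 2.14% and 0.153%, in order of age. Zbp1 was too low to be tested within an age. The intervals below show which sizes of change the libraries leave possible.

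**Figure D1:**
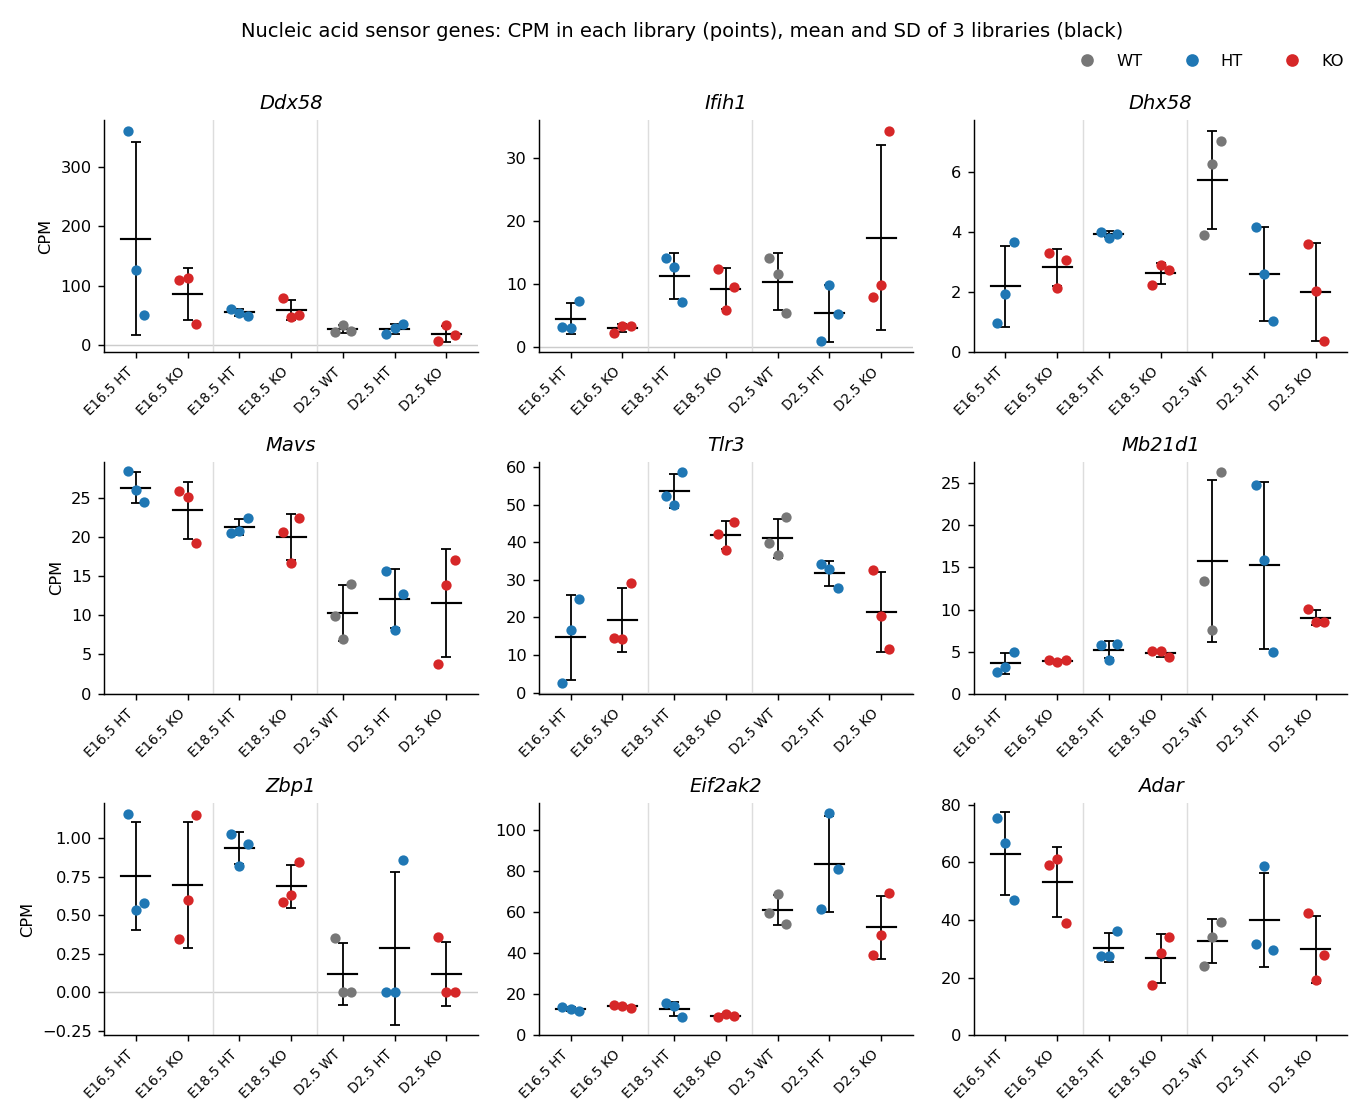
CPM of each gene (y axis) in each of the 21 libraries (points, coloured by genotype) for the 7 groups (x axis), with the mean and SD of 3 libraries in black. Eif2ak2 is at 39.1 CPM or more in every D2.5 library and at 15.4 CPM or less in every earlier one.

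Ddx58, the RIG-I helicase, was the most abundant sensor per kilobase of transcript in fetal cells, by group means. The HT libraries ranged from 12.8 to 93.1 CPM per kb at E16.5, where HT replicate 1 was the highest, and from 12.5 to 15.8 CPM per kb at E18.5. At E16.5 it was at 361, 126 and 49.7 CPM in the HT libraries and at 109, 112 and 35.8 CPM in the KO libraries. The groups overlapped, and HT replicate 1 was far above the others. The log2 fold change was -1.04 (95% interval -2.74 to 0.65, edgeR adjusted p = 0.976), and it was -0.02 without that library. At E18.5 HT cells held 61.1, 54.5 and 48.3 CPM and KO cells 78.2, 46.8 and 50.8 CPM, a log2 fold change of 0.10 (95% interval -0.31 to 0.50), which was -0.16 without KO replicate 1. At D2.5 WT cells held 21.5, 34.2 and 24.0 CPM, HT cells 17.6, 28.4 and 34.9 CPM and KO cells 6.49, 32.8 and 16.8 CPM. The D2.5 groups overlapped, and KO against HT was -0.54 (95% interval -1.61 to 0.54), or -1.20 without KO replicate 2 and -0.12 without KO replicate 1.

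Ifih1, the MDA5 helicase that binds long double-stranded RNA, was low at E16.5, with 3.19, 2.92 and 7.30 CPM in HT and 2.25, 3.32 and 3.34 CPM in KO. At E18.5 it was at 14.1, 12.7 and 7.15 CPM in HT and at 12.4, 5.87 and 9.49 CPM in KO. KO and HT libraries overlapped at both ages, with log2 fold changes of -0.58 (95% interval -1.73 to 0.57) and -0.29 (95% interval -0.91 to 0.33). The E16.5 value ran from -0.82 without HT replicate 2 to -0.01 without HT replicate 3. At D2.5 it was at 14.1, 11.6 and 5.31 CPM in WT, at 0.908, 9.91 and 5.16 CPM in HT and at 7.94, 9.83 and 34.4 CPM in KO. The high KO value comes from 1 library and the lowest HT value from 5 counts. KO against HT was 1.69 (95% interval 0.05 to 3.33, unadjusted p = 0.0436, edgeR adjusted p = 0.676), and 0.72 without KO replicate 3. Against WT it was 0.75 (95% interval -0.85 to 2.35), and -0.23 without KO replicate 3.

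Dhx58 encodes LGP2, a helicase that regulates the other members of its family and cannot signal by itself. It was at 0.966, 1.95 and 3.65 CPM in HT and 3.28, 2.13 and 3.06 CPM in KO at E16.5. The log2 fold change at E16.5 was 0.37 (95% interval -0.95 to 1.69), and 0.03 without HT replicate 1. At E18.5 the groups did not overlap: HT libraries held 4.01, 3.81 and 3.93 CPM and KO libraries 2.24, 2.89 and 2.72 CPM. The log2 fold change at E18.5 was -0.58 (95% interval -1.20 to 0.04, edgeR adjusted p = 0.671). At D2.5 WT cells held 3.88, 6.26 and 7.03 CPM, HT cells 4.17, 2.59 and 1.03 CPM and KO cells 3.61, 2.04 and 0.370 CPM. KO lay below WT without overlap, with a log2 fold change of -1.51 (95% interval -3.78 to 0.77). KO against HT at D2.5 was -0.37 and turned to 0.12 without KO replicate 3.

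Mavs is the adaptor on which both helicases converge, and its genotypes overlapped at each age. HT libraries held 28.4, 26.04 and 24.5 CPM at E16.5 and 20.5, 20.8 and 22.5 CPM at E18.5. KO libraries held 25.8, 25.1 and 19.2 CPM at E16.5 and 20.7, 16.7 and 22.5 CPM at E18.5. The log2 fold changes were -0.16 (95% interval -0.61 to 0.29) and -0.10 (95% interval -0.47 to 0.27). At D2.5 Mavs was at 9.88, 6.995 and 14.1 CPM in WT, 15.6, 8.08 and 12.7 CPM in HT and 3.79, 13.9 and 17.0 CPM in KO, with a KO against HT log2 fold change of -0.06 (95% interval -1.41 to 1.29).

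Tlr3 was the sensor with the lowest unadjusted p in KO against HT cells at E18.5. HT libraries held 52.3, 49.7 and 58.6 CPM and KO libraries 42.2, 37.9 and 45.3 CPM, so that each KO library lay below each HT library. The log2 fold change was -0.36 (95% interval -0.69 to -0.04, unadjusted p = 0.0313, edgeR adjusted p = 0.498). At E16.5 the values were 2.51, 16.7 and 24.9 CPM in HT and 14.5, 14.3 and 29.1 CPM in KO, a log2 fold change of 0.40 (95% interval -1.33 to 2.13) that was -0.09 without HT replicate 1, the low library. At D2.5 WT cells held 39.7, 36.6 and 46.8 CPM, HT cells 34.3, 32.9 and 27.9 CPM and KO cells 32.6, 20.4 and 11.5 CPM. Both HT and KO lay below WT without overlap. KO against WT was -0.94 (95% interval -1.80 to -0.08, unadjusted p = 0.0344, edgeR adjusted p = 0.584), HT against WT -0.37 (95% interval -1.22 to 0.48) and KO against HT -0.57 (95% interval -1.42 to 0.29).

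Libraries of the genotypes did not overlap for 0 of the 8 sensors in KO against HT at E16.5, 2 at E18.5 (Dhx58 and Tlr3) and 0 at D2.5, beside 6.26%, 13.7% and 11.7% of all genes tested. In KO against WT at D2.5 it was 2 of 8 (Dhx58 and Tlr3) beside 12.6%, and in HT against WT 1 of 8 (Tlr3) beside 8.69%. By edgeR 0 of 8 sensors passed in KO against WT (1 at an unadjusted p under 0.05) and 0 of 8 in HT against WT (0 at an unadjusted p under 0.05), where 0.216% and 0.00696% of all genes did. DESeq2 and limma-voom also called 0 in both. These comparisons share the WT or the KO libraries. Exons of Dhx58 and Tlr3 overlap antisense genes in the GENCODE annotation, and whether the counting used strand is not given in the sources used here.

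At E18.5 markers of other cells differed between the same libraries. The macrophage genes Mrc1 and Adgre1 rose in KO cells by log2 fold changes of 1.82 and 1.43 (edgeR adjusted p = 6.27e-05 and 0.00883). They were 2 of the 6 macrophage and blood markers tested, beside 2.14% of all genes called, and 4 of the 6 were above 0 and 2 below. The endothelial gene Tek rose by 0.87 (edgeR adjusted p = 0.0166). It was the 1 endothelial marker of 7 that passed, and 5 of the 7 were below 0, with a median of -0.02. Pou5f1, the gene of Oct4, fell by 0.81 (edgeR adjusted p = 0.0307). Of the 10 germ cell markers 7 were below 0, with a median log2 fold change of -0.24, and Pou5f1 was the 1 that passed. The sum of the 14 listed macrophage and blood markers was 38.3 to 41.8 CPM in HT and 71.8 to 92.2 CPM in KO, with 2 or 3 of the 14 at 0 in each library. This sum is weighted to Mrc1 and Cd68, with means of 30.7 and 16.1 CPM over the 21 libraries. Each of the other markers in it had a mean of 3.47 CPM or less. The part of these markers in the sensor values was not tested.

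Eif2ak2 encodes PKR, the kinase that stops translation on binding double-stranded RNA. It was at 13.4, 12.8 and 11.5 CPM in HT and 14.8, 14.1 and 13.4 CPM in KO at E16.5, and at 15.4, 14.0 and 8.59 CPM in HT and 8.97, 10.2 and 9.30 CPM in KO at E18.5. The fetal genotypes overlapped, with log2 fold changes of 0.17 (95% interval -0.32 to 0.66) and -0.41 (95% interval -0.91 to 0.09). At D2.5 it was at 59.4, 68.8 and 54.2 CPM in WT, 61.4, 108 and 81.0 CPM in HT and 39.1, 48.8 and 69.3 CPM in KO. KO against HT was -0.67 (95% interval -1.33 to -0.01, unadjusted p = 0.0456, edgeR adjusted p = 0.677), and KO against WT was -0.21 (95% interval -0.87 to 0.45).

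Adar encodes the enzyme that edits adenosines in double-stranded RNA and so marks it as the cell's own. At E16.5 it was at 75.3, 66.9 and 47.0 CPM in HT and 59.2, 61.3 and 39.1 CPM in KO, and at E18.5 at 27.6, 27.4 and 36.1 CPM in HT and 17.4, 28.4 and 34.2 CPM in KO. KO against HT was -0.24 (95% interval -0.80 to 0.33) at E16.5 and -0.19 (95% interval -0.67 to 0.29) at E18.5, where it was 0.04 without KO replicate 1. At D2.5 WT cells held 24.2, 34.2 and 39.2 CPM, HT cells 31.8, 58.7 and 29.6 CPM and KO cells 42.4, 19.3 and 27.7 CPM, with a KO against HT log2 fold change of -0.43 (95% interval -1.29 to 0.43). The D2.5 value of KO against HT ran from -0.76 without KO replicate 1 to -0.04 without HT replicate 2. Exons of Adar overlap those of Chrnb2 on the other strand.

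Mb21d1, now named Cgas, encodes the sensor of cytosolic DNA. It was at 2.61, 3.19 and 4.995 CPM in HT and 3.98, 3.75 and 4.01 CPM in KO at E16.5, and at 5.75, 4.03 and 5.94 CPM in HT and 5.07, 5.06 and 4.32 CPM in KO at E18.5. The log2 fold changes were 0.13 (95% interval -0.78 to 1.03) and -0.12 (95% interval -0.68 to 0.44). The E16.5 value was -0.05 without HT replicate 1. At D2.5 the controls were widely spread, with 13.4, 7.55 and 26.4 CPM in WT and 24.9, 15.9 and 4.99 CPM in HT, while KO libraries held 10.1, 8.53 and 8.50 CPM. KO against HT was -0.74 (95% interval -2.06 to 0.58). Exons of Mb21d1 overlap a pseudogene, Gm8093, on the other strand.

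Zbp1, which senses left-handed double-stranded nucleic acid and can start cell death, was the lowest sensor per kilobase in each of the 7 groups. It was at 1.16, 0.531 and 0.576 CPM in HT and 0.346, 0.596 and 1.15 CPM in KO at E16.5. At E18.5 it was at 1.03, 0.822 and 0.964 CPM in HT and 0.585, 0.632 and 0.846 CPM in KO. At D2.5 it had 0 counts in 6 of 9 libraries and 2, 5 and 2 counts in WT replicate 1, HT replicate 3 and KO replicate 1, so a difference between genotypes was not detectable at this depth.

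**Figure D2:**
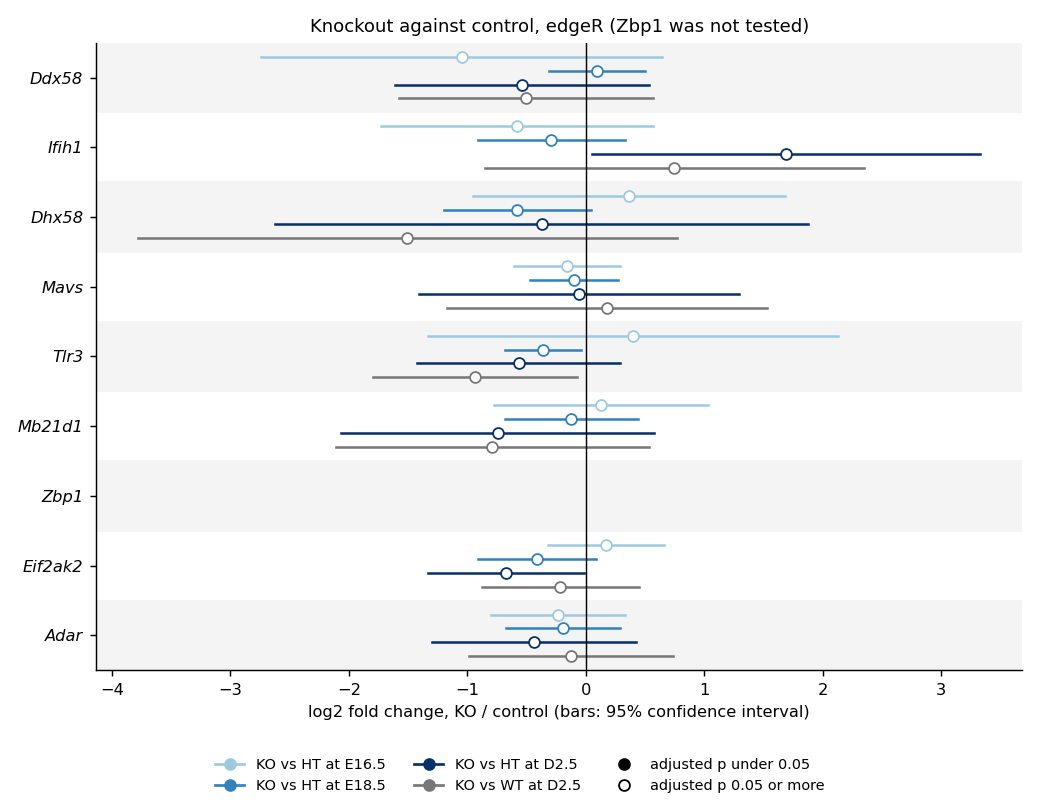
Log2 fold change of KO over control (x axis) with its 95% confidence interval for each sensor (y axis) in 4 comparisons. Open points mark an adjusted p of 0.05 or more, and every point is open.

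As a group, the 8 tested sensors had median log2 fold changes in KO against HT of -0.02, -0.24 and -0.48 from the earliest to the latest age. The medians of all genes tested were -0.01, -0.004 and -0.005. Below 0 were 7 of the 8 at E18.5, beside 9252 of all 18199 genes tested. After birth it was likewise 7 of the 8, beside 7231 of 14367 genes. Leaving out 1 library turned the sign of Ddx58, Mavs and Adar at E18.5 and of Dhx58 and Mavs at D2.5. Marker lists moved in the same comparisons: the germ cell median at E18.5 was also -0.24, and at D2.5 the stromal markers were above 0 in 8 of 8, with a median of 1.01. Their part in the sensor medians was not tested. In KO against WT at D2.5 the median was -0.36 and 6 of 8 were below 0. The KO effect differed between ages for 0 of 9 sensors, from E16.5 to E18.5 (0 at an unadjusted p under 0.05, where 0% of all genes passed in edgeR) and from E18.5 to D2.5 (1 at an unadjusted p under 0.05, where 0.0531% passed). DESeq2 and limma-voom also called 0 for both differences. That 1 gene was Ifih1, with a difference of 1.99 (95% interval 0.02 to 3.95, edgeR adjusted p = 0.475), which ranged from 1.05 without D2.5 KO replicate 3 to 2.82 without D2.5 HT replicate 2.

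The 2 repeat names followed here, out of 1217, are of families that can give double-stranded RNA in other settings. They were not tested for a difference, and ranges over the same libraries are given. IAPEz-int, the internal part of an endogenous retrovirus, was at 598 to 645 CPM in HT and 1151 to 1759 CPM in KO at E16.5, at 473 to 635 CPM in HT and 1504 to 1619 CPM in KO at E18.5, and at 517 to 648 CPM in HT and 1786 to 1941 CPM in KO at D2.5. L1Md_A, a young L1 element, overlapped at E16.5, with 2297 to 2748 CPM in HT and 2554 to 3911 CPM in KO, and was at 2653 to 2984 CPM in HT and 7343 to 9584 CPM in KO at E18.5. Counts do not show whether these RNAs were double-stranded, and a link to the sensor values was not tested.

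Eif2ak2 rose between E18.5 and D2.5 in both genotypes. Its log2 fold change was 2.72 in HT (SE 0.31, edgeR adjusted p = 5.27e-07) and 2.47 in KO (SE 0.31, edgeR adjusted p = 1.78e-06), and each D2.5 library lay above each E18.5 library. Left out 1 at a time, the libraries gave 2.57 to 3.004 in HT and 2.34 to 2.72 in KO. At D2.5 Eif2ak2 had the highest mean per kilobase of the sensors, with 14.1 CPM per kb in WT, 19.3 in HT and 12.2 in KO. Exons of Eif2ak2 overlap those of the noncoding gene Gm26637.

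In HT cells from E16.5 to E18.5, edgeR called 3 of 9 sensors, beside 13.2% of all genes. Tlr3 rose by 1.86 (SE 0.51, edgeR adjusted p = 0.0250), Ddx58 fell by 1.71 (SE 0.56, edgeR adjusted p = 0.0490) and Adar fell by 1.05 (SE 0.34, edgeR adjusted p = 0.0459). Leaving out E16.5 HT replicate 1 gave 0 of 9, with Ddx58 at -0.76, Tlr3 at 1.30 and Adar at -0.97, and lowered the count of all genes called from 2483 to 561. The count was also 0 of 9 without E16.5 HT replicate 2 or any 1 of the E18.5 HT libraries, and 3 of 9 without E16.5 HT replicate 3. In those 4 fits with 0 calls the log2 fold changes stayed near the full ones, at -1.98 to -1.70 for Ddx58, 1.73 to 1.90 for Tlr3 and -1.26 to -1.05 for Adar. Stromal markers moved over the same interval: 4 of 8 rose, and their sum was 30.2 to 121 CPM in HT at E16.5 (lowest in replicate 1, with 75.1 CPM next) and 186 to 238 CPM at E18.5, while 6 of 10 germ cell markers fell. The part of this in the sensor values was not tested. In KO cells over the same interval 0 of 9 sensors passed in edgeR (3 at an unadjusted p under 0.05, and 1 passed in DESeq2 and in limma-voom, Adar), beside 4.54% of all genes. The KO values were 1.11 for Tlr3, -0.55 for Ddx58 and -0.997 for Adar.

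From E18.5 to D2.5, 2 of 9 sensors passed in HT, beside 54.8% of all genes, and 2 of 9 in KO, beside 55.2%. In HT these were Eif2ak2 and Mb21d1, which rose by 1.54 (SE 0.51, edgeR adjusted p = 0.0158). Mb21d1 missed the threshold without E18.5 HT replicate 2 (1.47) or D2.5 HT replicate 1 (1.11), and in KO it was at 0.91 (edgeR adjusted p = 0.137). In KO they were Eif2ak2 and Ddx58, which fell by 1.64 (SE 0.58, edgeR adjusted p = 0.0210). Ddx58 missed the threshold in KO without E18.5 KO replicate 1 (-1.30), D2.5 KO replicate 1 (-1.14) or D2.5 KO replicate 3 (-1.455) and in limma-voom (-1.89), and in HT it was at -1.01 (edgeR adjusted p = 0.134). Other tools added calls of lower levels at D2.5: DESeq2 of Mavs in HT (-0.81, adjusted p = 0.0460), and limma-voom of Mavs in KO (-1.03, adjusted p = 0.0448) and of Zbp1 in HT (-2.38, adjusted p = 0.0226) and KO (-2.21, adjusted p = 0.0353). Zbp1 had at most 12 counts in a library, and its edgeR adjusted p was 0.188 in HT and 0.108 in KO. Libraries of neighbouring ages did not overlap for 4 of 9 sensors in HT from E16.5 to E18.5 (52.4% of all genes), 4 in HT from E18.5 to D2.5 (65.4%), 5 in KO from E16.5 to E18.5 (51.2%) and 5 in KO from E18.5 to D2.5 (64.9%). Each of these shares was near or below that of all genes.

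**Figure D3:**
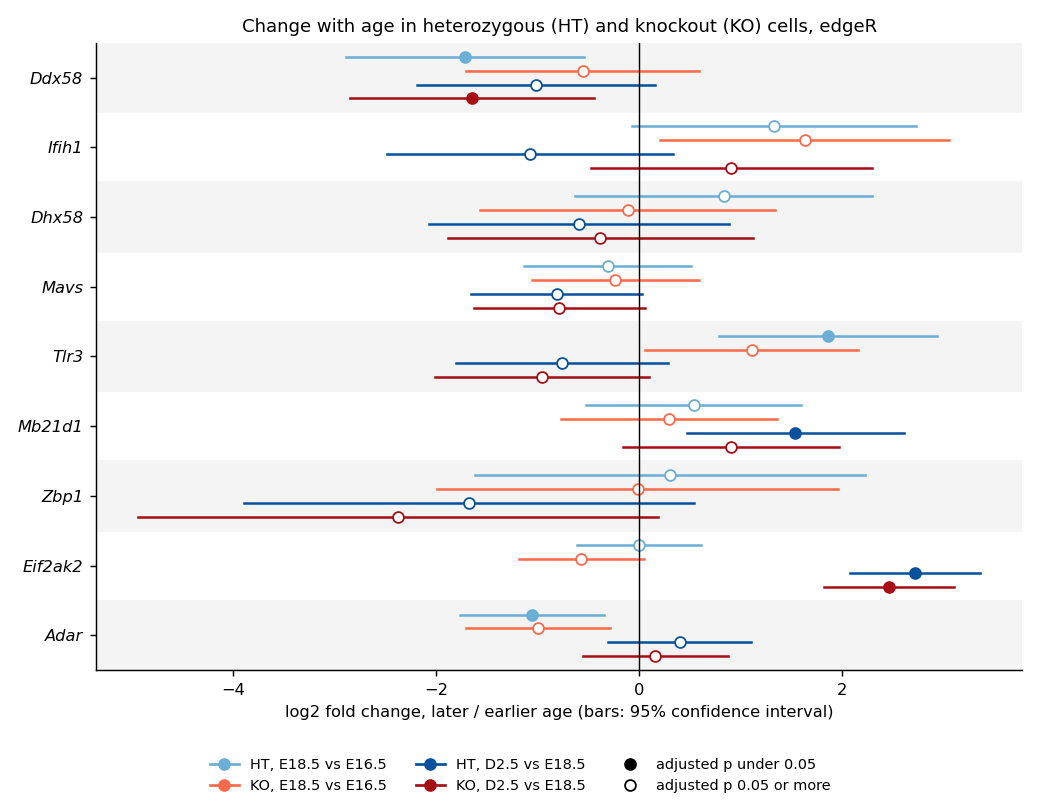
Log2 fold change of the later over the earlier age (x axis) with its 95% confidence interval for each sensor (y axis), in HT and KO cells. Filled points mark an adjusted p under 0.05, and Eif2ak2 is filled from E18.5 to D2.5 in both genotypes.

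The signalling steps after the sensors showed few differences between KO and HT. Of the adaptors, kinases and transcription factors, edgeR called 0 of 22, 0 of 25 and 0 of 23 tested at the 3 ages (0, 0 and 3 at an unadjusted p under 0.05), and DESeq2 called Ripk3 at D2.5. The kinase Tbk1, which activates the interferon regulatory factors, had log2 fold changes of -0.11, -0.03 and -0.39 at the 3 ages. The adaptor Traf3 was at 0.10, -0.01 and -0.38, and the ubiquitin ligase Trim25, which activates RIG-I, at -0.83, -0.17 and -0.15. Ripk3, a kinase of necroptosis that acts with ZBP1, was chosen after its values were seen: at D2.5 it was at 2.76 to 3.60 CPM in WT, 7.91 to 13.6 CPM in HT and 27.8 to 44.1 CPM in KO. KO against WT was 3.49 (SE 0.56, edgeR adjusted p = 0.00262) and KO against HT 1.84 (SE 0.52, edgeR adjusted p = 0.247).

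Interferons themselves were low, at a mean of 0.475 CPM or less over the 21 libraries for each one listed. Ifnl2 at E18.5 was above the level of 3 counts. Ifnb1, the first interferon made after RNA sensing, had 0 counts in each library other than 1 E18.5 KO library with 2 counts. The lambda interferon Ifnl2 was at 0.822 to 2.54 CPM in HT and 0.487 to 1.26 CPM in KO at E18.5 and at 0 counts in all D2.5 libraries. Of the interferons, receptors and their kinases edgeR called 0 of 10, 0 of 13 and 0 of 11 tested at the 3 ages (0, 1 and 1 at an unadjusted p under 0.05; DESeq2 and limma-voom also called 0). The receptor chain Ifnar1 had log2 fold changes of 0.12, -0.07 and 0.53, and the kinase Jak1 -0.09, -0.001 and 0.30.

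Of the interferon-stimulated genes edgeR called 0 of 22 at E16.5, 2 of 25 higher at E18.5 and 1 of 13 higher at D2.5. Beside this, 0.00618%, 2.14% and 0.153% of all genes were called, and at E18.5 377 of these were higher and 12 lower. At E16.5 edgeR had 1 of the 22 at an unadjusted p under 0.05, and DESeq2 and limma-voom also called 0. Samd9l, an interferon-induced antiviral factor, was at 7.15 to 9.14 CPM in HT and 11.9 to 21.1 CPM in KO at E18.5, and at 0.363 to 1.53 CPM in HT, 3.53 to 14.9 CPM in WT and 91.3 to 145 CPM in KO at D2.5. It rose by 1.12 at E18.5 (SE 0.24, edgeR adjusted p = 0.0194) and by 6.91 at D2.5 (SE 0.60, edgeR adjusted p = 4.28e-07). The E18.5 value missed the threshold without HT replicate 2 (1.10) or replicate 3 (1.04), and without KO replicate 2 (1.02) or replicate 3 (0.97). Against WT at D2.5 the log2 fold change was 3.83 (edgeR adjusted p = 0.000114), and the KO effect at D2.5 exceeded that at E18.5 by 5.82 (SE 0.62, edgeR adjusted p = 7.76e-05). Ifi44, another interferon-induced gene, rose by 1.14 at E18.5 (SE 0.23, edgeR adjusted p = 0.0150) and was at 1.58 at D2.5 (edgeR adjusted p = 0.706). Its E18.5 value missed the threshold when HT replicate 1 (0.95), HT replicate 2 (1.07) or KO replicate 3 (1.08) was left out. The most abundant others did not pass: Parp14 was at 0.18, 0.50 and -0.76 at the 3 ages, Parp9 at -0.23, 0.11 and 0.06, and Herc6 at 1.16, 0.32 and 0.34. The median of the list was -0.03, 0.02 and 0.06. Against WT at D2.5 Samd9l was the 1 gene of 13 called, beside 0.216% of all genes. There 10 of the 13 were below 0 and the median was -0.62. HT against WT, which shares the WT libraries, had 9 of 13 below 0 and a median of -0.52.

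Of the genes for double-stranded RNA binding, cleavage and stress, edgeR called 0 of 31, 0 of 31 and 0 of 28 tested (0, 2 and 2 at an unadjusted p under 0.05), limma-voom 0, and DESeq2 Eif2ak1 at D2.5. The RNA helicase Dhx9 was at -0.03, 0.04 and 0.27, and the microRNA enzymes Drosha at -0.38, 0.22 and -0.01 and Dicer1 at -0.17, 0.09 and 0.21. Of the genes that remove nucleic acids or sense DNA, edgeR called 0 of 20 at E16.5, 2 of 21 higher at E18.5 and 1 of 16 higher at D2.5. The shares of all genes called were 0.00618%, 2.14% and 0.153%. At E16.5 edgeR had 0 of the 20 at an unadjusted p under 0.05, and DESeq2 and limma-voom also called 0. Pnpt1, the mitochondrial RNA-degrading polynucleotide phosphorylase, was at 43.8 to 51.3 CPM in HT and 85.7 to 90.9 CPM in KO at E18.5 (0.87, SE 0.14, edgeR adjusted p = 0.00330) and at 141 to 176 CPM in HT and 376 to 506 CPM in KO at D2.5 (1.47, SE 0.21, edgeR adjusted p = 0.000568). Ifi203, of a family of DNA-binding interferon-induced proteins, rose by 2.19 at E18.5 (SE 0.31, edgeR adjusted p = 0.00112) from 2.81 to 4.26 CPM in HT to 11.02 to 24.3 CPM in KO. At D2.5 Ifi203 did not pass. DESeq2 gave 3.845 in KO against HT (adjusted p = 0.327) and 0.25 against WT (adjusted p = 0.986). Limma-voom gave 4.04 and 1.999 there (adjusted p = 0.727 and 0.812). Reads of this family can be shared between similar copies. The DNA repair kinase Prkdc was at 0.08, 0.26 and -0.07, its partner Xrcc5 at -0.38, -0.08 and 0.11, and the nucleotide hydrolase Samhd1 at -0.22, -0.11 and 0.07.

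Stromal markers at D2.5 summed to 211 to 320 CPM in HT, 190 to 486 CPM in WT and 328 to 805 CPM in KO, and 0 of the 8 passed in edgeR (3 at an unadjusted p under 0.05; DESeq2 called Col1a2). Their part in the D2.5 values of Samd9l, Pnpt1 and Ripk3 was not tested.

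In HT cells from E18.5 to D2.5, where 54.8% of all genes passed (4026 of 18815 higher, 6278 lower, median -0.51), the pathway lists had these counts. The shares of interferon-stimulated genes, adaptors and interferons that passed lay below that of all genes. Those of the genes for double-stranded RNA binding, cleavage and stress (19 of 31) and for nucleic acid removal and DNA sensing (17 of 21) lay above it. Of the interferon-stimulated genes 0 of 26 rose and 11 fell, with Samd9l at -3.09 in HT and 2.72 in KO. Of the genes for double-stranded RNA binding, cleavage and stress 11 of 31 rose and 8 fell, with Dhx9 at 3.12, Drosha at 2.20 and Dicer1 at 1.42, all higher. Among adaptors, kinases and transcription factors 5 of 25 rose, including Trim25 (2.19) and Tbk1 (1.02), and 6 fell, including Traf3 (-0.82). Among interferons and receptors 1 of 13 rose, Jak1 (1.17), and 4 fell. Of the genes that remove nucleic acids or sense DNA 5 of 21 rose, including Pnpt1 (1.69) and Prkdc (1.12), and 12 fell.

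**Figure D4:**
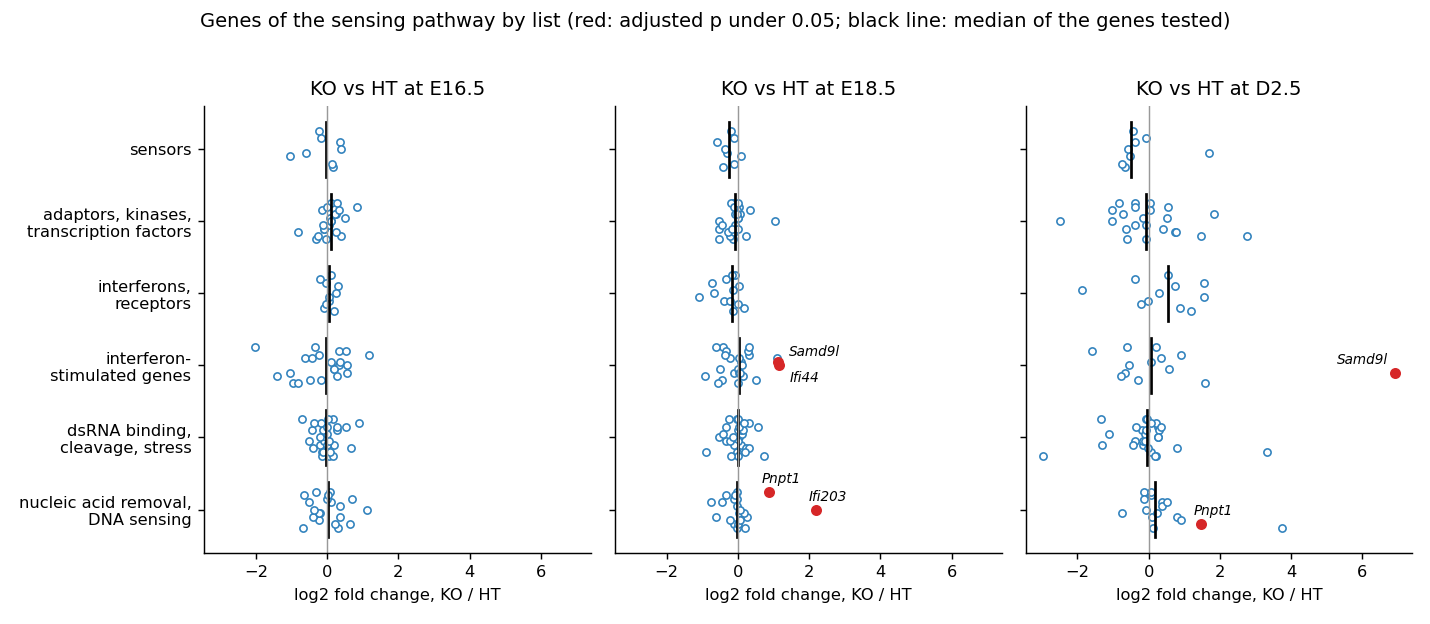
Log2 fold change of KO over HT (x axis) for each tested gene of 6 lists (y axis) at the 3 ages, with the median of each list as a black line and genes with an adjusted p under 0.05 in red. The sensors hold no red point at any age, and Samd9l at D2.5 lies at 6.91.

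Per kilobase of transcript the order of the sensors changed between the ages. In HT cells at E18.5, Ddx58 (12.5 to 15.8 CPM per kb) and Tlr3 (11.3 to 13.3 CPM per kb) overlapped at the top. Mavs (6.72 to 7.35 CPM per kb) and Adar (4.64 to 6.11 CPM per kb) followed without overlap. Eif2ak2 (1.99 to 3.57 CPM per kb) overlapped Ifih1 (1.31 to 2.57 CPM per kb), which overlapped Dhx58, and Mb21d1 (0.996 to 1.47 CPM per kb) came before Zbp1. In HT cells at D2.5 Eif2ak2 stood alone at 14.2 to 25.04 CPM per kb, above Tlr3, Ddx58 and Adar, whose libraries overlapped between 4.54 and 9.94 CPM per kb.

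Across the 21 libraries the values of the sensors followed several patterns. Pearson correlations of log2 CPM between pairs of sensors ran from -0.76 for Zbp1 and Mb21d1 to 0.77 for Ddx58 and Mavs. The libraries share ages and depth, so these values describe the set only. Among 13884 genes compared, those most like Eif2ak2 were Scai (r = 0.98) and Deptor (r = 0.98), and those most like Tlr3 were Atp2b2 (0.94) and Fam46a (0.93). Ddx58 was most like Tysnd1 (0.92) and Agrn (0.90), Mavs like Agrn (0.93) and Eri3 (0.92), and Mb21d1 like Mtmr1 (0.92) and Fam71d (0.91). The highest values were lower for Zbp1 (Tspan33, 0.90, and Trmo, 0.89), Adar (Vps33a, 0.87, and Cpsf3, 0.87), Ifih1 (Stk26, 0.83, and Capn2, 0.81) and Dhx58 (Stk33, 0.80, and Abcc3, 0.79).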

How the data were processed

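RNA of sorted germ cells was extracted with a PicoPure kit and made into libraries with NuGEN Ovation kits, per the labels' protocols. The values deposited by the authors are read counts per gene and repeat name. The submitters' processing notes name STAR, Bowtie, featureCounts, edgeR and mm9. Which step each did, and in which version, is not given in the sources used here.

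Counts were tested with the quasi-likelihood test of edgeR 4.0.16 in R 4.3.3, two-sided, after filterByExpr (minimum count 10, minimum total 15) and TMM scaling over gene rows. P-values were adjusted by Benjamini-Hochberg over all genes tested, with a threshold of 0.05. Each fetal age had its own fit, D2.5 a fit of 9 libraries, and changes with age and differences of the KO effect in 1 fit of 18 HT and KO libraries. Intervals are 95% and use the moderated degrees of freedom. CPM used TMM factors over all 21 libraries, and CPM per kb the transcript lengths of GENCODE vM21. DESeq2 1.42.0 and limma-voom (limma 3.58.1), other scaling and filters, replicate blocks and leaving out each library were alternatives; the KO age contrasts were added after seeing the data. The script was tested on simulated data. Named genes were the 9 sensors, each list gene that passed in KO against HT, the 3 most abundant others per list and the 2 genes most correlated with each sensor. The values of 1 such list gene are not reported here. Sensors and lists were chosen with earlier results of these data known. Figures used Python 3.11.15 and matplotlib 3.10.9.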

Additional observations from a re-analysis of the deposited data

How the results depend on the processing

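The 0 sensors called in KO against a control stayed at 0 under each alternative run. Pairing by replicate number was checked on each library's deviations from its group mean in log2 CPM, correlated across genes. For same-numbered HT and KO libraries the values were 0.589, -0.118 and 0.761 (E16.5), 0.213, 0.131 and 0.0917 (E18.5) and 0.0330, -0.0173 and 0.0256 (D2.5). Differently numbered ones ran from -0.716 to 0.520 (E16.5), -0.229 to 0.106 (E18.5) and -0.0556 to 0.0343 (D2.5). With so few libraries these values do not settle whether the fetal libraries were paired, and the main fits used no pairing. With the replicate block, genes called were 2 in KO against HT at E16.5, 5106 in HT and 2634 in KO from E16.5 to E18.5, and from E18.5 to D2.5 the block added the calls of Ddx58 in HT (-1.05, edgeR adjusted p = 0.0145) and Tlr3 in KO (-1.05, edgeR adjusted p = 0.0416). DESeq2 called 6 genes at E16.5 and 126 at D2.5 in KO against HT, 123 in KO against WT, 2 in HT against WT, 256 for the D2.5 minus E18.5 KO effect, and 3788 (HT) and 2135 (KO) from E16.5 to E18.5. Limma-voom called 5437 (HT) and 2617 (KO) there, and scaling over genes and repeat names 1369 (KO). Without a filter 109, 110 and 4 genes passed at D2.5 in KO against HT, KO against WT and HT against WT. From E16.5 to E18.5, sensors called were 1 in HT with RLE factors and, in KO, 1 by DESeq2 and 1 by limma-voom. The causes were not tested.

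Signs turned for some values that did not pass. With limma-voom Mavs was -0.067 in KO against WT, and for the D2.5 minus E18.5 KO effect Dhx58 was -0.025, Mavs -0.15 and Zbp1 0.17 (from -0.70). With the replicate block Ddx58 was -0.0051 in HT against WT and Mavs -0.092 for that KO effect. Adar was -0.00142 (RLE), -0.00317 (genes and repeat names) and -0.00147 (DESeq2) for the E18.5 minus E16.5 KO effect. Eif2ak2 in HT from E16.5 to E18.5 was -0.081 (genes and repeat names), -0.0056 (no filter), -0.060 (stricter filter), -0.053 (limma-voom) and -0.024 (replicate block), and Zbp1 in KO was 0.12 (limma-voom) and 0.017 (replicate block).

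Leaving out 1 library at a time, genes called ranged from 197 to 392 (KO against HT, E18.5), 14 to 24 (D2.5), 19 to 40 (KO against WT), 1 to 2 (HT against WT), 4 to 30 (D2.5 minus E18.5 KO effect), and, from E16.5 to E18.5, 561 (without E16.5 HT replicate 1) to 5074 (without E16.5 HT replicate 3) in HT and 56 (without E16.5 KO replicate 1) to 1787 (without E16.5 KO replicate 3) in KO. Sensors called ranged from 0 to 3 (HT) and 0 to 1 (KO) over that interval, and 1 to 3 (HT) and 1 to 2 (KO) from E18.5 to D2.5. Values that crossed 0 ranged as follows. KO against HT: Tlr3 -0.092 to 1.03 and Mb21d1 -0.049 to 0.46 at E16.5, Ddx58 -0.16 to 0.23, Mavs -0.19 to 0.0066 and Adar -0.41 to 0.043 at E18.5, Dhx58 -1.08 to 0.12 and Mavs -0.45 to 0.36 at D2.5. KO against WT: Ifih1 -0.23 to 1.10, Mavs -0.21 to 0.60, Adar -0.45 to 0.11. HT against WT: Ddx58 -0.21 to 0.27, Adar -0.088 to 0.49, Mb21d1 -0.56 to 0.51. KO effect, E18.5 minus E16.5: Ifih1 -0.28 to 0.495, Mavs -0.082 to 0.15, Adar -0.18 to 0.27, Zbp1 -0.78 to 0.19. KO effect, D2.5 minus E18.5: Dhx58 -0.51 to 0.74, Mavs -0.33 to 0.45, Tlr3 -0.63 to 0.14, Adar -0.59 to 0.18, Zbp1 -4.08 to 3.87. With age: Eif2ak2 -0.23 to 0.15 in HT, Dhx58 -0.36 to 0.0073 and Zbp1 -0.34 to 0.43 in KO from E16.5 to E18.5, Dhx58 -1.02 to 0.24 and Adar -0.10 to 0.51 in KO from E18.5 to D2.5. Depth limits Zbp1 most, with at most 12 counts in a library.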
